A study of Mus musculus with 45 samples.

Results

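The genes described here are 8 products and regulators of goblet cells, the mucus-secreting cells of the gut epithelium: Zg16, Tff3, Fcgbp, Spink4, Agr2, Sytl2, Atoh1 and Spdef. They were picked by name, with earlier results of these data known. All 8 were present among the 50600 genes measured by RNA sequencing of the mouse distal colon. In the first cohort, 10 libraries came from mice lacking Il10 (KO) given vehicle, 7 from KO mice given compound 13 at 10 mg/kg, 9 from KO mice given it at 30 mg/kg, and 8 from untreated wild-type (WT) mice. Compound 13 is a code name for an antagonist of GPR4, a cell surface receptor that senses extracellular protons. A second cohort of KO mice, labelled day 77, gave 5 libraries after an antibody to p40, the subunit shared by interleukins 12 and 23, and 5 after vehicle. Mice lacking Il10, the gene of an anti-inflammatory cytokine, develop colitis and are a common model of inflammatory bowel disease. No age, sex, strain or treatment length was given beyond these labels, apart from the day 77 in the titles. Since WT mice received no vehicle, genotype and vehicle cannot be told apart in the comparison of KO with WT. Whether each library is a different animal is not stated in the labels. The p-values therefore reflect variation among libraries, part of which may be technical.

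Goblet cells arise in the crypt from progenitors that express Atoh1, a basic helix-loop-helix factor that commits cells to the secretory lineage, and mature under Spdef, an ETS family factor. Their granules hold the gel-forming mucin MUC2 together with smaller proteins that organise or protect the mucus. Mucin assembly loads the endoplasmic reticulum, where the disulfide isomerase family protein AGR2 acts, and granules reach the cell surface with the help of proteins that bind Rab27, such as those of the synaptotagmin-like family.

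Libraries held 22682471 to 36279743 counts. Il10 had 0 counts in all 36 KO libraries and 10 counts in total over the 8 WT libraries, too few to check a single library's label. The epithelial marker Epcam was present in every library, at 1212 to 1451 TPM in KO vehicle and 1113 to 1348 TPM in WT libraries. Transcripts of pancreatic acinar cells were abundant in some libraries. Of the 44 grouped libraries 8 held more than 1000 TPM summed over 11 acinar enzymes, 3 of them KO vehicle, 3 KO 30 mg/kg, 1 WT and 1 anti-p40. Results are also given without those 8 libraries where that changed a call or a count. These are bulk samples, in which fewer goblet cells and less RNA per goblet cell cannot be told apart.

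Upstream sequence was examined for the 4 members with a window in the RefSeq promoter table (GRCm38.p6): Fcgbp, Agr2, Atoh1 and Spdef. Shown here are the 3 of these genes that were called higher in KO vehicle than in WT, of which Fcgbp held the only match. Each sequence is the 250 bases before the RefSeq start, 5′ to 3′ on the strand of the gene. The windows are chr7:28070986-28071235 (plus strand) for Fcgbp, chr12:35992675-35992924 (plus strand) for Agr2 and chr17:27728952-27729201 (minus strand) for Spdef.
Fcgbp: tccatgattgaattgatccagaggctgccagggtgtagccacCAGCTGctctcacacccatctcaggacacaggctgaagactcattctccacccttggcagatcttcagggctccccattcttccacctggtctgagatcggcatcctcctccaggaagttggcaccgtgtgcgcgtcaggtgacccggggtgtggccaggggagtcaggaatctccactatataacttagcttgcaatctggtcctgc
Agr2: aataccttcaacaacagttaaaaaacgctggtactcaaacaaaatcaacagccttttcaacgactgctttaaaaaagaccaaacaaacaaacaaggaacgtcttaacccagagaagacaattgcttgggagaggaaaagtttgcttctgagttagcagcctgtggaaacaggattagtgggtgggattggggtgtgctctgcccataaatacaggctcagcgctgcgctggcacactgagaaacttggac
Spdef: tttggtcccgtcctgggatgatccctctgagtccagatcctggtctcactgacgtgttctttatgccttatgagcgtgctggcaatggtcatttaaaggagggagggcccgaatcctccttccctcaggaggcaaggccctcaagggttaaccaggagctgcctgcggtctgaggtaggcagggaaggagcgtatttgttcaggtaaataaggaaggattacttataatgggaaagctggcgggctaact
Capitals mark a match to one of 3 words searched on both strands: CAGCTG and CAGATG, E-box words of the kind bound by factors such as Atoh1, and CCGGAT, a word of the kind bound by ETS factors such as Spdef. The only match in the 4 windows was CAGCTG in Fcgbp, at positions -208 to -203 from its start. Over all windows of this length in the table, 13.0% held CAGCTG, 14.4% CAGATG and 4.94% CCGGAT. A match is a description of these letters and shows no binding.

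Levels per length separated the 8 genes into an abundant set, the secreted products and Agr2, and a scarce set, Sytl2 and the regulators Atoh1 and Spdef. Zg16, which encodes a small lectin that binds bacterial peptidoglycan in mucus (GRCm38 chr7:127050156-127087328, minus strand), was the most abundant at 13607 ± 1939.7 TPM in KO vehicle and 12087 ± 1419 TPM in WT (mean ± SD, n = 10 and 8). Tff3, the gut trefoil peptide (chr17:31125306-31129646, minus), came next at 5667 ± 1192 TPM in KO vehicle and 7639 ± 940.0 TPM in WT. Over its gene span Zg16 overlaps the lincRNA Gm44939 and the snRNA Gm22747, which lie on the other strand. Overlap of exons was not checked, and the strandedness of the libraries was not given in the sources used here. Reads of these genes may therefore be mixed with those of Zg16.

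Fcgbp (chr7:28071236-28120862, plus), whose product is a large mucus protein with von Willebrand domains, averaged 3194 ± 1007 TPM in KO vehicle and 2908 ± 244.8 TPM in WT. Spink4 (chr4:40920052-40931395, plus), a goblet cell peptide of the Kazal protease inhibitor family, had 4306 ± 871 TPM in KO vehicle and 2278 ± 382 TPM in WT. Agr2 (chr12:35992907-36004087, plus) had 1569.5 ± 283 TPM in KO vehicle and 1093 ± 177 TPM in WT. The secreted products and Agr2 thus lay above 1000 TPM on average in every group, and the other 3 genes below 100 TPM.

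Sytl2 (chr7:90302252-90410719, plus), a Rab27 effector of granule exocytosis, had 49.5 ± 6.14 TPM in KO vehicle and 45.2 ± 10.9 TPM in WT. Atoh1 (chr6:64729125-64731245, plus) had 36.6 ± 9.20 TPM in KO vehicle and 41.7 ± 6.09 TPM in WT, and Spdef (chr17:27714352-27728955, minus) had 40.8 ± 8.24 TPM in KO vehicle and 38.5 ± 4.0 TPM in WT. Together the 8 genes made up 2.85% of all TPM in KO vehicle, 2.74% at 10 mg/kg and 3.16% at 30 mg/kg, 2.61% in WT, 2.57% with anti-p40 and 2.02% in day 77 vehicle. Within the first cohort, ranges of mean ± SD overlapped between neighbours in the order of group levels for every gene except Spink4, for which the lowest KO group (10 mg/kg, 3864 ± 706 TPM) stood clear of WT. In the day 77 cohort they did not overlap for Tff3 and Fcgbp. Single Tff3 libraries still overlapped there (4601 to 6130 TPM with anti-p40, 2762 to 5143 TPM in vehicle). The share of all genes with such ranges apart was not computed, so this describes TPM levels and is no test. The plot of TPM by library shows these levels.

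In the dosed and day 77 groups (SD, n = 7, 9, 5 and 5), Zg16 averaged 12072 ± 2151 TPM at 10 mg/kg and 15282 ± 2433 TPM at 30 mg/kg, and 9973 ± 2097 TPM with anti-p40 against 9083 ± 2679 TPM in day 77 vehicle. Tff3 averaged 6654 ± 1059.7 TPM at 10 mg/kg and 6917 ± 1240.1 TPM at 30 mg/kg, and 5754 ± 650.4 TPM with anti-p40 against 3979.7 ± 970.3 TPM in day 77 vehicle. The dosed groups lay between KO vehicle and WT for Tff3, and only the 30 mg/kg group lay above both for Zg16. Fcgbp averaged 3509.9 ± 1687 TPM at 10 mg/kg and 3564 ± 984 TPM at 30 mg/kg, and 4156 ± 1328 TPM with anti-p40 against 1635 ± 467 TPM in day 77 vehicle. Spink4 averaged 3864 ± 706 TPM at 10 mg/kg and 4250.5 ± 1513 TPM at 30 mg/kg, and 3433 ± 1824 TPM with anti-p40 against 3809.8 ± 899 TPM in day 77 vehicle. In TPM, the highest mean of Fcgbp over the 6 groups was that with anti-p40, and the lowest that in day 77 vehicle. Counts scaled to library size gave another order for Fcgbp, so this ranking holds for TPM only. Agr2 averaged 1166 ± 279.8 TPM at 10 mg/kg and 1428 ± 388 TPM at 30 mg/kg, and 2249 ± 559.8 TPM with anti-p40 against 1551 ± 241 TPM in day 77 vehicle. Spdef averaged 34.5 ± 10.2 TPM at 10 mg/kg and 36.4 ± 6.66 TPM at 30 mg/kg, and 59.7 ± 18.7 TPM with anti-p40 against 36.1 ± 6.87 TPM in day 77 vehicle. Both Agr2 and Spdef had their highest means with anti-p40. Sytl2 ranged over the 6 group means from 41.2 TPM at 10 mg/kg to 53.8 TPM at 30 mg/kg, and Atoh1 from 33.5 TPM at 10 mg/kg to 41.7 TPM in WT. Rankings over the 6 groups, and the shares of all TPM above, span both cohorts. Cohort and group cannot be told apart in them.

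**Figure D1:**
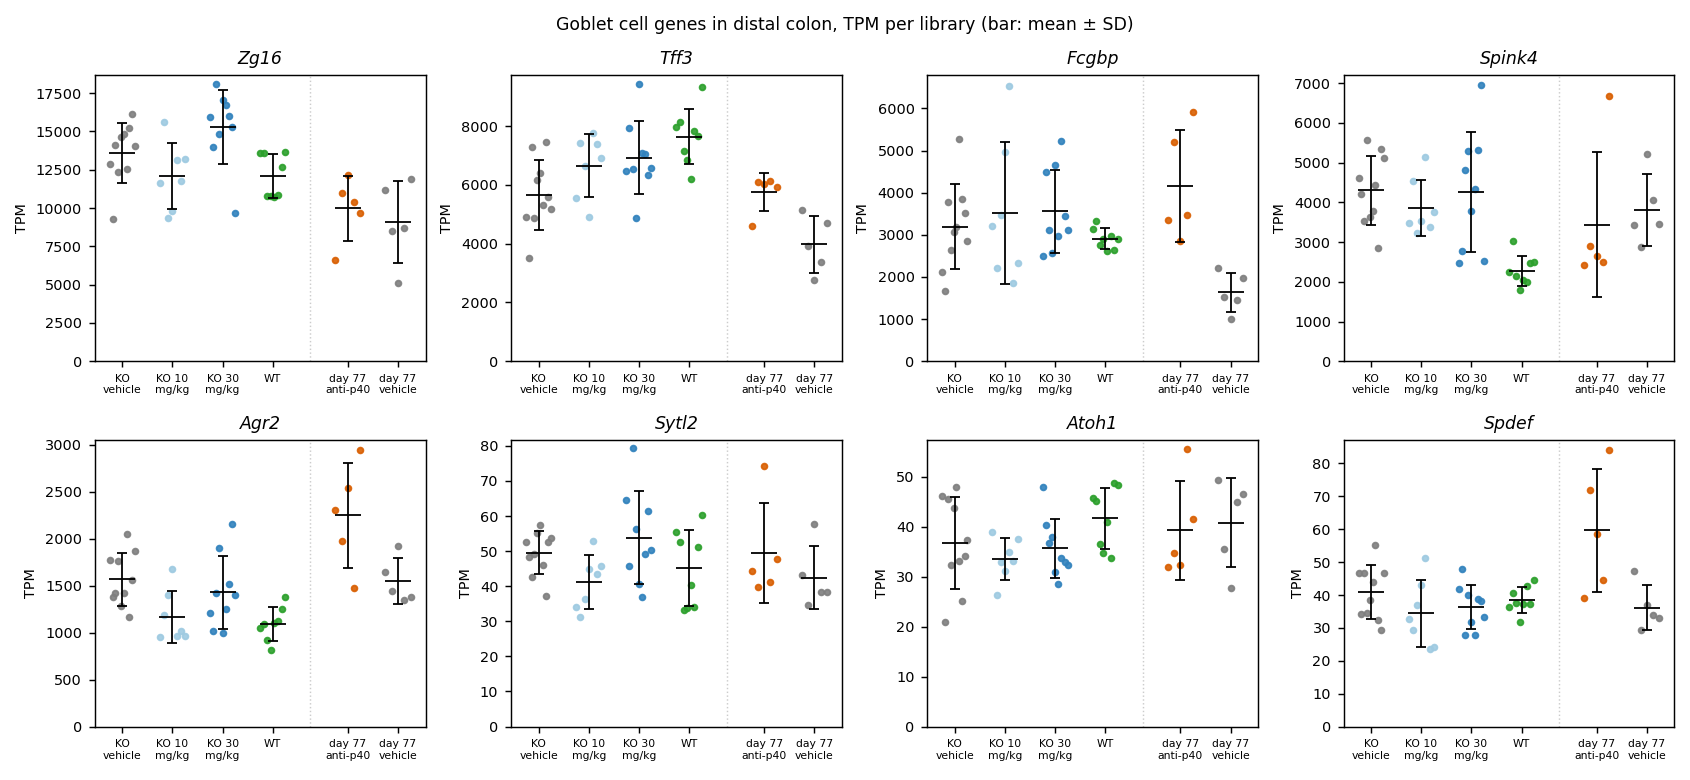
TPM (vertical axes, linear, from 0) of the 8 genes in each library, by group, with mean ± SD as bars. Left of the dotted line is the first cohort, right of it the day 77 cohort. Spink4 is higher in the KO vehicle libraries (2862 to 5569 TPM, against 1799 to 3020.2 TPM in WT), and Fcgbp is higher with anti-p40 (2843 to 5917 TPM) than in day 77 vehicle (1008 to 2202 TPM).

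The first comparison set KO vehicle against WT colon, to describe goblet genes in colitis. On counts scaled to library size by edgeR's TMM method (CPM), 6 of the 8 genes were higher in KO vehicle, none was lower, and Tff3 and Atoh1 did not pass the test. A gene was called at a Benjamini-Hochberg adjusted p under 0.05 over all genes tested (edgeR quasi-likelihood), and in this comparison 49.4% of all genes were called, 25.2% higher and 24.1% lower. The median log2 fold change of the 8 was 0.38, beside -0.01 over all genes tested. Without the libraries rich in acinar enzymes 5 were called higher and 0 lower, beside 4167 higher and 4272 lower of all 16290 genes tested. The calls depended on the scaling used.

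Among the secreted products, Spink4 had the largest log2 fold change of the 8. The lowest, median and highest values were 288, 407 and 589 CPM in KO vehicle, against 159, 189 and 250.4 CPM in WT. The groups did not overlap. The log2 fold change was 1.10 ± 0.12 (SE, adjusted p = 5.01e-06, edgeR). Fcgbp followed, with 6745, 9006 and 14021 CPM in KO vehicle and 3659, 5054 and 7039 CPM in WT. Of the 10 KO vehicle libraries, 9 lay above every WT library, and the log2 fold change was 0.90 ± 0.16 (adjusted p = 0.000304, edgeR).

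Zg16 rose less. Its values were 3319.5, 4499 and 6007 CPM in KO vehicle and 3157, 3450.2 and 3910.2 CPM in WT, with 9 of 10 KO vehicle libraries above the WT mean and a log2 fold change of 0.36 ± 0.10 (adjusted p = 0.00515, edgeR). Zg16 is named for the zymogen granules of the pancreas. Acinar enzymes varied widely within groups, with 11 of them summing to 1.32 to 19245 TPM in KO vehicle and 1.29 to 13562 TPM in WT. Without the 4 libraries above 1000 TPM in these groups, the log2 fold change of Zg16 was 0.37 (adjusted p = 0.0133, edgeR), beside 0.36 with them. The part of acinar RNA in the Zg16 difference was not tested. Tff3 did not follow, with 668, 1049.7 and 1348 CPM in KO vehicle and 973, 1161 and 1364 CPM in WT. Its groups overlapped, and at a log2 fold change of -0.25 ± 0.12 it was not called (adjusted p = 0.0864, edgeR), although 9 of 10 KO vehicle libraries lay below the WT mean. Without KO vehicle replicate 8 it was called lower, at -0.31 (adjusted p = 0.0261, edgeR).

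Agr2, the endoplasmic reticulum member, had 499, 654 and 916 CPM in KO vehicle and 304, 398 and 501 CPM in WT. All 10 KO vehicle libraries were above the WT mean, and the log2 fold change was 0.72 ± 0.12 (adjusted p = 0.000148, edgeR). For the granule gene Sytl2 the values were 71.0, 105 and 119 CPM in KO vehicle and 57.4, 75.6 and 106 CPM in WT. Of the 10 KO vehicle libraries 4 lay above every WT library, and its log2 fold change of 0.36 ± 0.13 passed the test (adjusted p = 0.0264, edgeR). In the authors' deposited table Sytl2 stood at 0.31 (adjusted p = 0.0797), outside the threshold. It lost the call when WT replicate 3, 4, 5 or 6 was left out (adjusted p = 0.0513 to 0.0581), and without the libraries rich in acinar enzymes (adjusted p = 0.0507).

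The regulators differed from each other. Spdef had 34.9, 46.0 and 62.1 CPM in KO vehicle and 28.8, 35.9 and 42.4 CPM in WT, with 9 of 10 KO vehicle libraries above the WT mean and a log2 fold change of 0.39 ± 0.10 (adjusted p = 0.00536, edgeR). Atoh1 had 34.2, 57.6 and 71.8 CPM in KO vehicle and 47.2, 56.7 and 65.6 CPM in WT. Its log2 fold change was 0.00 ± 0.12, with a 95% interval of -0.25 to 0.25 (adjusted p = 0.999, edgeR), and KO vehicle libraries lay on both sides of the WT range.

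Epithelial and muscle markers moved with this comparison. Of 8 pan-epithelial markers 7 were called higher in KO vehicle, and of 8 smooth muscle markers all 8 were called lower. Summed smooth muscle levels were 241 to 6345 TPM in KO vehicle and 3819 to 8813 TPM in WT, while summed pan-epithelial levels were 10042 to 15854 TPM in KO vehicle and 9651 to 11436 TPM in WT. When libraries were scaled to the 8 pan-epithelial genes, the median of all genes shifted to -0.51 and 69.0% of genes were called, 6.69% higher and 62.3% lower. On that scale 2 of the 8 genes were higher in KO vehicle and 2 lower. The scale rests on the summed counts of the markers, so the abundant ones weigh most. Krt8 had the highest levels, with medians of 5615 TPM in KO vehicle and 3797 TPM in WT. Krt18, Krt19, Cldn7 and Vil1 also had higher medians in KO vehicle. In the same order, medians were 1319 and 1294 TPM for Epcam, 494 and 467 TPM for Elf3, and 393 and 439 TPM for Cdh1.

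On the epithelial scale, Spink4 was still higher, at 0.55 ± 0.10 (adjusted p = 0.000202, edgeR), and so was Fcgbp, at 0.37 ± 0.15 (adjusted p = 0.0325). Tff3 was lower at -0.71 ± 0.18 (adjusted p = 0.00222) and Atoh1 lower at -0.49 ± 0.17 (adjusted p = 0.0143). Zg16, Sytl2 and Spdef changed sign, to -0.14, -0.17 and -0.10, and were not called, nor was Agr2 at 0.19 ± 0.10 (adjusted p = 0.104). On log2(TPM + 1), where 53.9% of genes were called by limma (14.1% higher and 39.9% lower), Spink4 at 0.91 ± 0.12 and Agr2 at 0.52 ± 0.11 were higher and Tff3 was lower at -0.45 ± 0.12 (adjusted p = 0.00442). Only Spink4 was called higher on all 3 scales. The plot of log2 fold changes sets the TMM and epithelial scalings side by side.

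**Figure D2:**
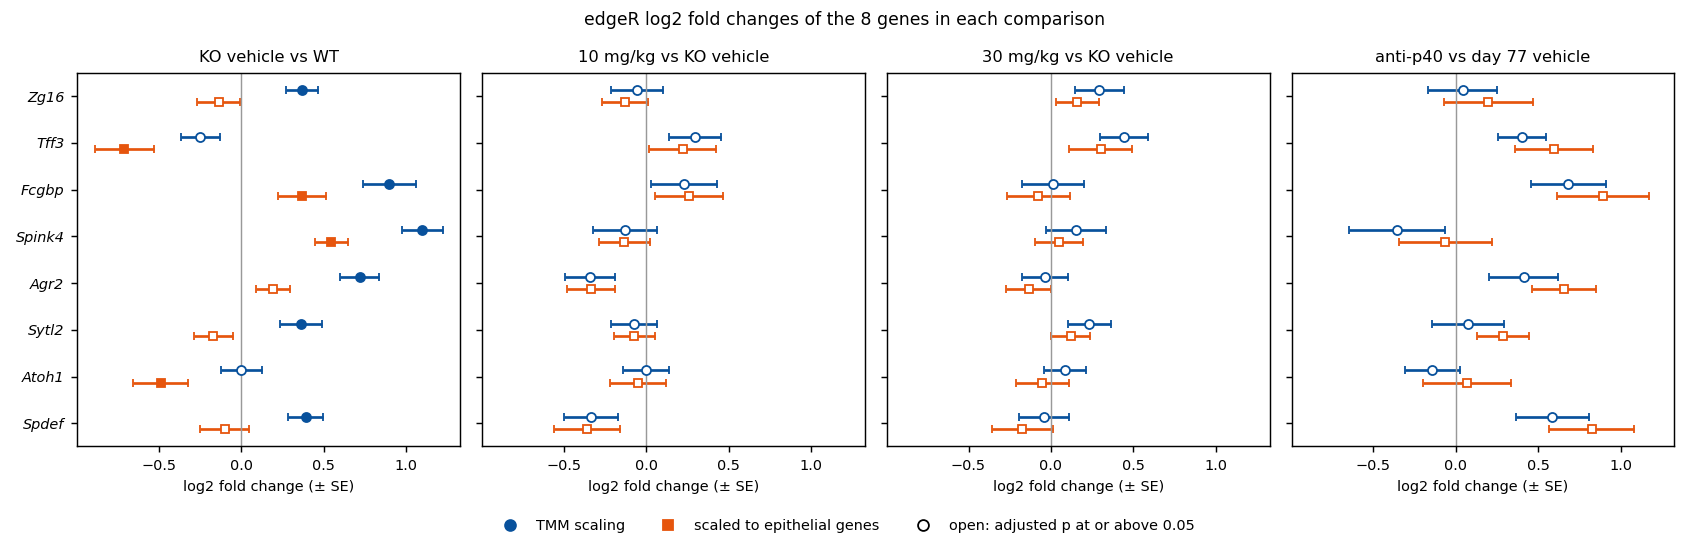
edgeR log2 fold change (horizontal axes, ± SE) of the 8 genes in 4 comparisons, with TMM scaling (blue circles) and scaling to 8 pan-epithelial genes (orange squares). Filled symbols have an adjusted p under 0.05. In KO vehicle against WT, Spink4 lies at 1.10 and 0.55 on the TMM and epithelial scales, and Tff3 at -0.25 and -0.71, while no symbol is filled in the other 3 panels.

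Other genes of the same pathway were read from lists of goblet products, regulators, exocytosis and protein folding genes. Of 20 other goblet products 16 were tested, 6 were higher in KO vehicle and 1, Klk1, was lower. The largest log2 fold changes were those of Retnlb, a resistin-like protein secreted by goblet cells (5.78 ± 0.84, adjusted p 6.57e-05), Itln1, an intelectin that binds microbial glycans (5.66 ± 1.44, adjusted p 0.00444), and Ang4, an antimicrobial ribonuclease (4.01 ± 1.17, adjusted p 0.01). In TPM, KO vehicle and WT libraries overlapped for Itln1 (2.05 to 1599 and 0.32 to 17.2) and Ang4 (0.11 to 1502.5 and 1.97 to 42.7). They did not overlap for Retnlb (51.85 to 3094 and 5.76 to 21.7). Muc2 was also higher. The median log2 fold change of the list was 0.18, beside -0.01 over all genes. Scaled to epithelial genes, 3 of the list were higher (Retnlb, Ang4 and Itln1) and 7 lower.

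Of 24 genes listed under protein folding in the endoplasmic reticulum 19 were higher in KO vehicle and 1, Ddit3, was lower. Ddit3 encodes a stress-induced transcription factor and not a folding protein. Ero1l, an oxidase that supplies disulfide bonds, was higher by a log2 fold change of 1.01 ± 0.18 (adjusted p = 0.000293). That of Sdf2l1, a cofactor of folding chaperones, was 0.78 ± 0.13 (adjusted p = 0.000152), and that of Manf, a stress-induced protein of the same compartment, was 0.77 ± 0.15 (adjusted p = 0.000436). The list's median was 0.53 on TMM scaling and -0.01 when scaled to epithelial genes, where 3 genes were higher and 7 lower. Of 17 secretory lineage regulators 4 were higher and 3 lower, among them Cdx2, an intestinal homeobox factor (0.88 ± 0.11, adjusted p 1.52e-05), and Foxa2, a forkhead factor (-0.80 ± 0.16, adjusted p 0.000857). Of 16 exocytosis genes 7 were higher and 2 lower, with Rab27a, the GTPase that Sytl2 binds, at 0.69 ± 0.13 (adjusted p = 0.000374). Scaled to epithelial genes, 1 regulator was higher (Cdx2) and 13 lower, and 1 exocytosis gene was higher (Sytl3) and 10 lower.

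Markers of other secretory cells were present beside these changes. All 3 tested Paneth cell markers of 7 listed were called higher in KO vehicle, led by Itln1, which the goblet list also holds, and Pla2g2a, a secreted phospholipase (5.33 ± 0.47, adjusted p 7.62e-07). Summed over the 7 markers the range was 148 to 3458 TPM in KO vehicle and 33.4 to 122 TPM in WT. The defining defensins were near absent: Defa30 was at 0 in every KO vehicle and WT library, and Defa24 and Defa17 were at 0 in 9 of 10 KO vehicle libraries and in all 8 WT libraries. All 8 proliferation markers and all 4 tested neutrophil markers of 7 listed were called higher. Of enteroendocrine markers 1 of 6 tested (Gcg) and of tuft cell markers 1 of 5 tested (Sh2d6) were higher. Of 9 colonocyte markers 5 were higher and 1 lower. Scaled to epithelial genes, 2 of these 3 Paneth cell markers, 3 of 8 proliferation markers and 4 of 4 neutrophil markers were higher. On TMM scaling, the receptor genes Il4ra, Il13ra1 and Il13ra2 were called higher among 6 tested genes of the interleukin 4 and 13 axis. The cytokines of this axis drive goblet cell differentiation. Il13ra2 was scarce and near the threshold, at means of 1.69 CPM in KO vehicle and 0.965 CPM in WT (adjusted p = 0.0470, edgeR). The part of these genes in the result was not tested.

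Compound 13 was compared at each dose with KO vehicle, and the doses with each other. None of the 8 genes was called in any of these 3 comparisons (edgeR), in which 0% of all genes were called at 30 mg/kg, 0.0118% at 10 mg/kg and 0% between the doses. DESeq2 and limma voom also called 0 of the 8 in each. In the same order, DESeq2 called 3, 72 and 343 of all 28193 genes, and limma voom 0, 2 and 0 of 16948. At an unadjusted p under 0.05, edgeR counted 1 of the 8 genes at 30 mg/kg, 1 at 10 mg/kg and 2 between the doses. Of all 16948 genes tested, 1004, 1865 and 2451 passed that threshold in the same order. The comparisons share the vehicle or dosed libraries, so they are not independent of each other.

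Tff3 had the lowest unadjusted p of the 8. Its lowest, median and highest values were 605, 972 and 1249 CPM with vehicle, 835, 1093 and 1511 CPM at 10 mg/kg and 810.2, 1143 and 1823 CPM at 30 mg/kg. Of the 9 libraries at 30 mg/kg, 8 lay above the vehicle mean and 3 above every vehicle library, and the groups overlapped. The log2 fold change was 0.44 ± 0.15 at 30 mg/kg (95% interval 0.14 to 0.74, adjusted p = 0.835, edgeR) and 0.30 ± 0.16 at 10 mg/kg (adjusted p = 0.485).

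Zg16 had 3008, 4155 and 5479 CPM with vehicle, 2489, 3836 and 6230.1 CPM at 10 mg/kg and 2849, 5320.2 and 6223 CPM at 30 mg/kg. It was 0.29 ± 0.15 (log2 fold change) at 30 mg/kg against vehicle and 0.35 ± 0.16 at 30 against 10 mg/kg (adjusted p = 0.845 against vehicle and 0.322 between doses, edgeR). Agr2 was at the other end of the 10 mg/kg comparison, with 462, 600.4 and 850.5 CPM with vehicle, 373, 453 and 672 CPM at 10 mg/kg and 455, 520.3 and 887 CPM at 30 mg/kg. Of the 7 libraries at 10 mg/kg, 6 lay below the vehicle mean, and at -0.34 ± 0.15 (95% interval -0.65 to -0.03) it was not called (adjusted p = 0.411, edgeR). Spdef had nearly the same value at that dose, -0.34 ± 0.16 (adjusted p = 0.456).

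For the other genes at 30 mg/kg the log2 fold changes were 0.23 ± 0.13 for Sytl2, 0.15 ± 0.18 for Spink4, 0.08 ± 0.13 for Atoh1, 0.01 ± 0.19 for Fcgbp, -0.04 ± 0.14 for Agr2 and -0.04 ± 0.15 for Spdef. At 10 mg/kg those of Fcgbp, Atoh1, Zg16, Sytl2 and Spink4 ran from -0.13 (Spink4) to 0.23 (Fcgbp). The 95% intervals of all 8 genes lay between -0.38 (Fcgbp) and 0.74 (Tff3) at 30 mg/kg and between -0.67 (Spdef) and 0.64 (Fcgbp) at 10 mg/kg. On log2(TPM + 1), Spink4 at 30 mg/kg was on the other side of 0, at -0.08, and was not called there either. Between the doses, 7 of the 8 estimates were higher at 30 than at 10 mg/kg, with a median of 0.29 beside 0.02 over all genes, and Fcgbp was lower at -0.22 ± 0.21. No member of the 14 context lists was called at 30 mg/kg or at 10 mg/kg (edgeR).

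Anti-p40 was compared with vehicle in the day 77 cohort. Here 16.7% of all genes were called, 8.35% higher and 8.32% lower, and none of the 8 goblet genes was among them in edgeR. At an unadjusted p under 0.05 there were 3 (Fcgbp, Tff3 and Spdef), all higher with anti-p40, beside 5399 of all 16470 genes tested. DESeq2 called 1 of the 8 (13.4% of all genes), limma voom 0 (2671 of all 16470 genes) and limma on log2(TPM + 1) 2 (12.9% of all genes). The median log2 fold change of the 8 was 0.24, beside 0.01 over all genes tested.

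Fcgbp had 7280.4, 10318, 8563, 6996 and 15069 CPM with anti-p40, against 8240.2, 4981, 5493, 5101 and 6254 CPM with vehicle. All 5 anti-p40 libraries were above the vehicle mean and 3 above every vehicle library. It was higher by 0.68 ± 0.23 on the log2 scale (adjusted p = 0.0604, edgeR). DESeq2 gave 0.67 ± 0.23 (adjusted p = 0.0249), and the authors' deposited table lists a log2 value of 0.67 (adjusted p = 0.0215). On log2(TPM + 1) it was 1.34 ± 0.25 (adjusted p = 0.00613, limma). It was called by edgeR when vehicle replicate 1 was left out, at 0.82 (adjusted p = 0.0428).

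Tff3 had 891, 1201, 1105, 1067 and 1089 CPM with anti-p40, against 983, 789, 649, 656 and 983 CPM with vehicle. Here 4 of the 5 anti-p40 libraries were above every vehicle library, with a log2 fold change of 0.40 ± 0.14 (adjusted p = 0.0792, edgeR). The authors' deposited table had 0.39 for Tff3 (adjusted p = 0.0492), just inside the threshold, and limma on log2(TPM + 1) 0.56 ± 0.16 (adjusted p = 0.0419). Spdef had 43.9, 83.2, 65.1, 47.4 and 97.0 CPM with anti-p40, against 56.0, 35.2, 51.5, 40.3 and 41.2 CPM with vehicle. It spread over more than its vehicle range with anti-p40, 3 of 5 libraries lay above every vehicle library, and the log2 fold change was 0.59 ± 0.22 (adjusted p = 0.0891, edgeR). Without anti-p40 replicate 1 it was called higher, at 0.70 (adjusted p = 0.0482).

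Agr2 had 928, 826, 1034, 571 and 1233 CPM with anti-p40, against 676, 615, 986, 557 and 621 CPM with vehicle, a log2 fold change of 0.41 ± 0.21 (adjusted p = 0.195, edgeR). Vehicle replicate 3 was the highest of its group and lay within the anti-p40 range. Spink4 had 304, 359, 293, 259 and 719 CPM with anti-p40, against 409, 366, 752, 502 and 447 CPM with vehicle. Of the 5 anti-p40 libraries 4 lay below every vehicle library and replicate 5 lay near the top of the vehicle range. The log2 fold change was -0.36 ± 0.29 (adjusted p = 0.427, edgeR) with that library and -0.69 (adjusted p = 0.0401) without it. Replicate 5 is also the anti-p40 library rich in acinar enzymes, with 10111 TPM, against at most 2.24 TPM in vehicle, and the highest of its group for Fcgbp, Spdef and Agr2. Without it Fcgbp was at 0.47 (adjusted p = 0.102), Spdef at 0.43 (adjusted p = 0.164) and Agr2 at 0.30 (adjusted p = 0.358), all edgeR.

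Zg16, Sytl2 and Atoh1 had log2 fold changes with anti-p40 of 0.04 ± 0.21, 0.07 ± 0.22 and -0.14 ± 0.17. Their 95% intervals were -0.42 to 0.50, -0.41 to 0.56 and -0.51 to 0.22. Of 8 pan-epithelial markers 0 were called between these groups (edgeR). Their summed levels overlapped, at 10086 to 17688 TPM with anti-p40 (median 10997) and 11266 to 16236 TPM in vehicle (median 12646). Meanwhile 6 of 8 smooth muscle markers were higher with anti-p40, at 2994 to 7542 TPM summed, against 938 to 2829 TPM in vehicle. Of 4 tested neutrophil markers of 7 listed, 3 were lower with anti-p40. Of 9 colonocyte markers 3 were higher with anti-p40 (Car1, Guca2a and Slc26a3) and 1, Krt20, was lower. Colonocyte markers summed to 5398 to 7799 TPM with anti-p40 and 2153 to 4089 TPM in vehicle, without overlap. Of 3 tested Paneth cell markers of 7 listed, Pla2g2a was lower with anti-p40 (-4.29 ± 0.61, adjusted p 0.0015, edgeR), and Itln1 and Lyz1 were not called. The 7 summed to 74.8 to 672 TPM with anti-p40 and 1404 to 2605 TPM in vehicle. Within that list the members differed, with medians of 17.7 TPM of Itln1 with anti-p40 and 1.05 TPM in vehicle. Pla2g2a alone had 34.6 to 286 TPM with anti-p40 and 1362 to 2151 TPM in vehicle. The defensins Defa24 and Defa30 were at 0 in all 5 anti-p40 libraries and in 3 of 5 vehicle libraries, but reached 283 and 39.1 TPM in vehicle. Defa17 reached 69.0 TPM in vehicle and 0.38 TPM with anti-p40. Scaled to epithelial genes, the median log2 fold change of all genes was 0.23, and 0 of the 8 goblet genes were called (5.77% of all genes). On that scale Fcgbp, Spdef and Agr2 were at 0.89 ± 0.28, 0.82 ± 0.26 and 0.66 ± 0.19. The part of these markers in the result was not tested.

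Other goblet products did pass the test with anti-p40. Of 16 tested, 5 were higher (Clca1, Ang4, Reg4, Klk1 and Creb3l1) and 1, Galnt12, was lower, with a list median of 0.43 beside 0.01 over all genes. Clca1, a secreted mucus-processing metalloprotease of goblet cells, averaged 10989.6 ± 2909 CPM with anti-p40 and 1854 ± 1519 CPM with vehicle (SD, n = 5 each, log2 fold change 2.57 ± 0.51, adjusted p 0.00871, edgeR). Reg4, a C-type lectin of secretory cells, was higher, with a log2 change of 2.05 ± 0.31 (adjusted p = 0.00233), and Ang4 one of 6.08 ± 1.39 (adjusted p = 0.0166). Scaled to epithelial genes, Clca1, Reg4 and Klk1 were called higher and 0 of the list lower. Among regulators Gfi1, a zinc finger factor downstream of Atoh1, was higher (0.85 ± 0.25, adjusted p 0.037) and Xbp1, a transcription factor of the unfolded protein response, was lower (-0.47 ± 0.13, adjusted p 0.0303). Among the exocytosis genes Syt7 was higher, and so was Myrip, a Rab27 effector like Sytl2 (2.36 ± 0.51, adjusted p 0.0118), while Sytl3 and Stxbp2 were lower. Il4ra was lower (-1.14 ± 0.18, adjusted p 0.00294), and so was Il13ra1. On the epithelial scale Il4ra was still called lower and Myrip still higher, while 0 of 17 regulators were called. Of the 24 genes listed under protein folding only the stress-induced transcription factor gene Ddit3 was called (0.73 ± 0.12, adjusted p 0.00386).

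Whether anti-p40 and compound 13 at 30 mg/kg had different effects was tested in a single fit, each against the vehicle of its own cohort. None of the 8 genes was called (edgeR, 1.65% of all genes), with 2 at an unadjusted p under 0.05, beside 2787 of all 18021 genes tested. Those were Spdef, for which the anti-p40 effect was higher by 0.63 ± 0.25 on the log2 scale (unadjusted p = 0.0154, adjusted p = 0.188), and Fcgbp, higher by 0.67 ± 0.31 (adjusted p = 0.268). DESeq2 and limma voom called 0 of the 8, beside 640 of all 30820 and 268 of all 18021 genes. On log2(TPM + 1), where 2.15% of all genes were called, so was Spdef, at 0.83 ± 0.23 (adjusted p = 0.0457, limma). Of the other goblet products, Clca1 (2.34 ± 0.57, adjusted p 0.0201) and Klk1 (1.37 ± 0.27, adjusted p 0.00298) were called higher in this difference. The treatments differ in cohort as well as in agent, so cohort and agent cannot be told apart here.

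Counts and TPM disagreed for Fcgbp. In KO vehicle against WT its log2 fold change was 0.90 from counts and 0.07 ± 0.16 from TPM (adjusted p = 0.718, limma). The ratio of its count to its TPM, which in the output of RSEM, a tool the submitters name, is proportional to the length assigned to the gene in that library, was therefore examined, a measure chosen after the data were seen. After removing each library's median over 9722 genes with at least 100 counts in every library, the lowest, median and highest relative values were 0.749, 1.23 and 1.55 in KO vehicle, against 0.522, 0.691 and 0.989 in WT. Of the 10 KO vehicle libraries 7 lay above every WT library. The log2 ratio was 0.62, and 3 of the 9722 genes, Fcgbp included, had a ratio as far from 0. This restates the gap between its count and TPM changes and is given as a description with no test.

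In the day 77 cohort the ratio was lower with treatment. It was 0.897, 0.773, 1.17, 0.816 and 0.947 with anti-p40, against 1.48, 1.26, 1.70, 1.38 and 1.13 with vehicle, and the groups overlapped by 1 anti-p40 library (replicate 3) and 1 vehicle library (replicate 5). In TPM Fcgbp had 3344, 5204, 2843, 3474 and 5917 with anti-p40, against 2202, 1528, 1008, 1461 and 1977 with vehicle, and there the groups did not overlap. The log2 ratio of counts per TPM was -0.59, again among the 3 farthest from 0 of 9722 genes. With compound 13 against vehicle it was -0.000212 at 10 mg/kg and -0.27 at 30 mg/kg. GENCODE M21 lists 6 Fcgbp transcripts of 931 to 7928 bases, 2 of them protein coding. Which transcripts gained or lost reads cannot be read from gene totals, and the cause was not tested. For the other 7 genes the same log2 ratios stayed between -0.19 (Spdef at 10 mg/kg) and 0.12 (Spdef in KO vehicle against WT). Between cohorts, counts per TPM differed for some of them. Those of Spink4 were 1.11 to 1.43 with anti-p40 and 1.25 to 1.37 in day 77 vehicle, against 0.798 to 1.02 in KO vehicle and 0.862 to 1.04 in WT.

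**Figure D3:**
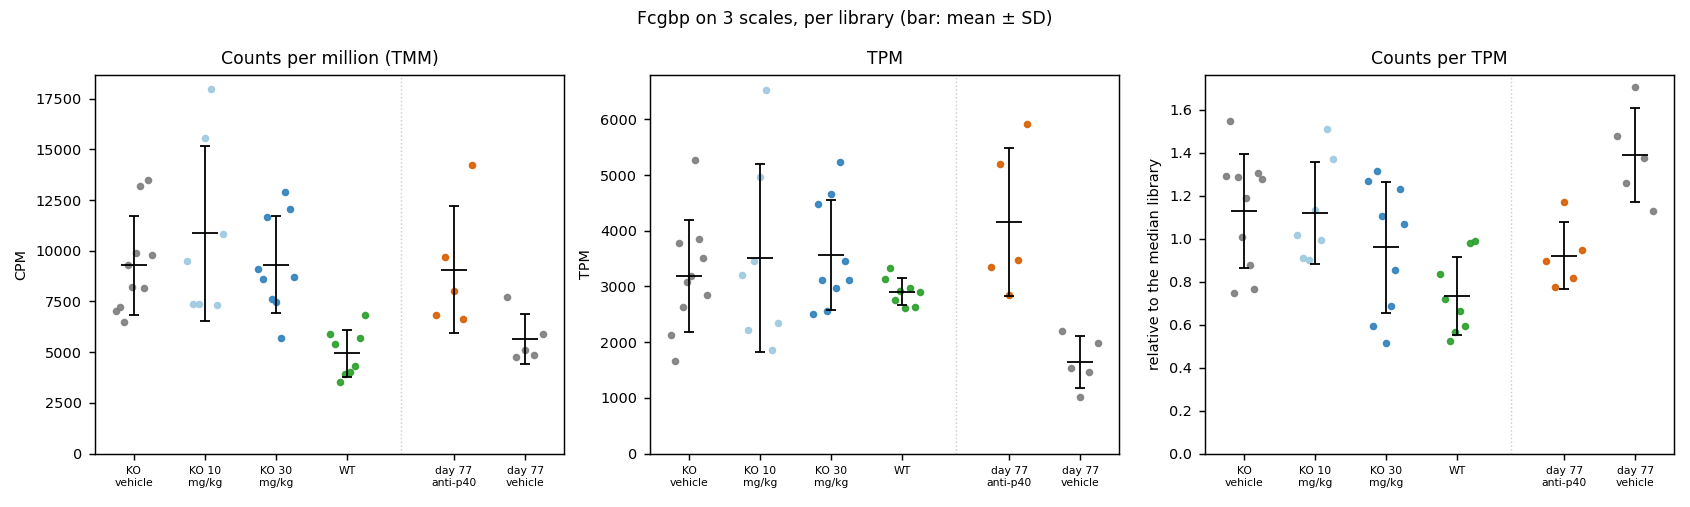
Fcgbp in each library as TMM-scaled CPM over all 44 grouped libraries, as TPM, and as counts per TPM relative to the median library (vertical axes, linear, from 0), with mean ± SD as bars. Counts per TPM have a median of 1.23 in KO vehicle and 0.691 in WT, and of 0.897 with anti-p40 and 1.38 in day 77 vehicle.

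Within groups, the 8 genes varied together only in part. Over the 34 first-cohort libraries, with group means removed, the 28 pairwise Pearson correlations of log2(CPM + 1) had a median of 0.34 and ran from -0.29 (Tff3 with Agr2) to 0.70, and 26 were above 0. The highest were Zg16 with Tff3 (0.70) and Fcgbp with Sytl2 (0.70), followed by Spink4 with Agr2 (0.59). Agr2 was at 0.06 with Zg16 and at -0.29 with Tff3. Libraries differ in depth and epithelial share, which all 8 genes have in common, so these values are a description and carry no test.

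Over the 10 day 77 libraries the correlation of Zg16 with Tff3 was 0.88 and that of Spink4 with Agr2 was 0.73. Fcgbp with Spdef was at 0.88 in this cohort and 0.45 in the first, and Fcgbp with Sytl2 at 0.08 in this cohort. Atoh1 and Agr2 were at -0.54 here and at 0.01 in the first cohort. With 10 libraries single values can set such a correlation, and 9 of the 28 pairs were at or below 0.

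**Figure D4:**
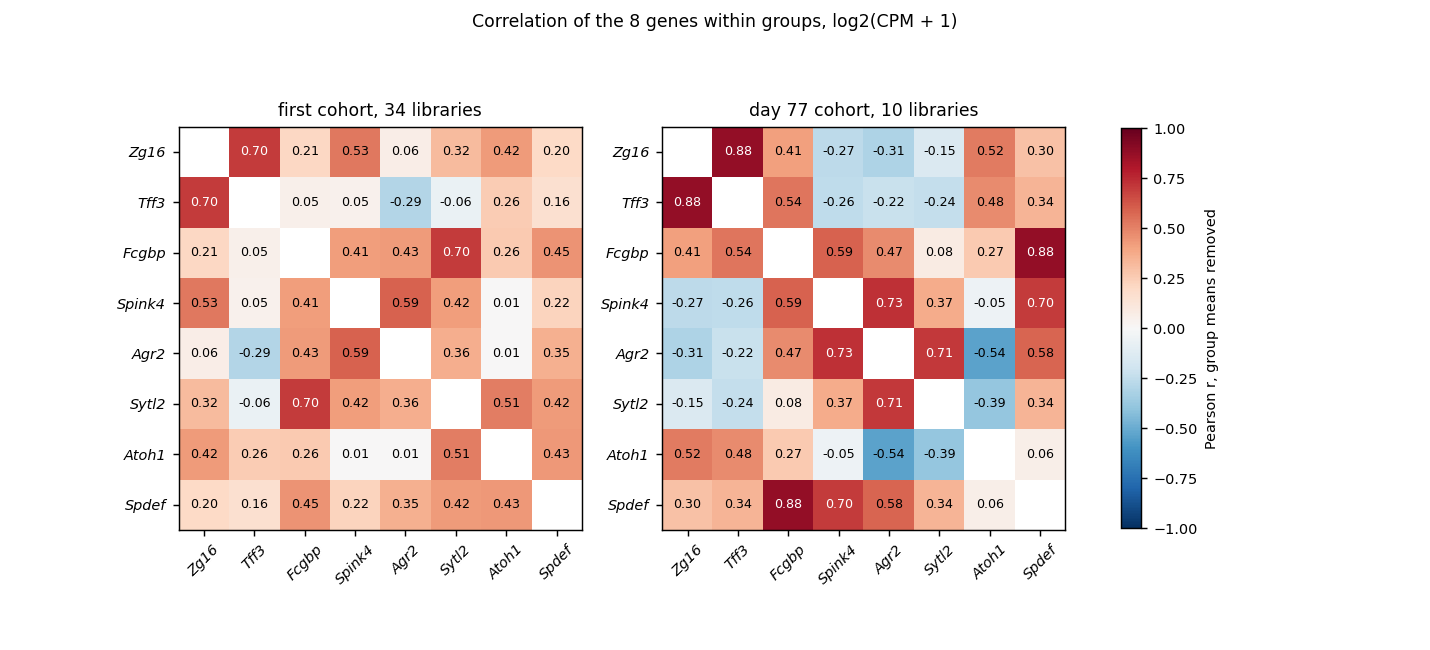
Pearson correlation between the 8 genes of log2(CPM + 1) with group means removed, in the 34 first-cohort libraries (left) and the 10 day 77 libraries (right), with color from blue (-1) to red (1). Zg16 and Tff3 reach 0.70 and 0.88, and Fcgbp and Spdef 0.45 and 0.88.

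The genes outside the 8 whose pattern was most like each, over all 44 grouped libraries with group means removed, were named by highest Pearson r. For Zg16 they were Bcas1 (r = 0.76), Yipf1 (r = 0.70) and Hepacam2 (r = 0.70). Those of Tff3 were Spink1 (r = 0.80) and the histone genes Hist2h2aa2 (r = 0.78) and Hist3h2a (r = 0.77). Fcgbp was nearest to Fer1l6, a ferlin family gene (r = 0.87), E330009J07Rik (0.84) and Ptprn2, which encodes a secretory granule phosphatase-like protein (0.78). Agr2 was nearest to Tspan13 (r = 0.87), to Rpn2, a subunit of the oligosaccharyltransferase complex (0.84), and to Tars, a threonyl-tRNA synthetase (0.84). For Spink4 they were Tmsb10 (r = 0.74), Spcs1 (r = 0.71) and Tm7sf2 (r = 0.70), and for Sytl2 Itsn2 (r = 0.86), Slc4a7 (r = 0.85) and Fam20b (r = 0.85). Atoh1 was nearest to Ugt2b34 (r = 0.73), Strbp (r = 0.70) and Appl2 (r = 0.67). Spdef was nearest to Cmtm8 (r = 0.72), Tpsg1 (r = 0.71) and Muc2, the gel-forming mucin itself (0.68).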

How the data were processed

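Poly(A) RNA of distal colon was extracted with RNeasy columns, per the labels' protocols. The authors deposited estimated counts and TPM per gene for each library, and tables of log2 fold changes with p-values for their own comparisons. The submitters' processing notes name mm10, RSEM 1.3.3, STAR 2.7.8a, DESeq2 1.30.1 and cutadapt 3.7, without roles. The annotation, strandedness and treatment of multiply mapped reads are not given in the sources used here. Non-whole values made up 17.1% (first cohort) and 20.4% (day 77) of the deposited estimated counts above 0, and all counts were rounded. Of 50600 gene IDs 50376 matched GENCODE M21 (GRCm38). Each library was compared with its replicates, and in all 150 pairs the counts differed beyond sampling noise (chi-square over its degrees of freedom at least 7.72), so none was merged.

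Tests were edgeR 4.0.16 quasi-likelihood fits (R 4.3.3, TMM, filterByExpr, robust), with Benjamini-Hochberg adjustment over all genes. KO vehicle against WT and anti-p40 against vehicle were fitted alone, the KO first-cohort groups together, and the difference of effects over 6 groups. limma 3.58.1, DESeq2 1.42.0, log2(TPM + pseudocount), other scalings and leaving out libraries were alternatives. The code was tested on simulated data. The 8 genes and the gene lists were chosen with earlier results of these data known. Values are given for up to 3 called genes of each list, those with the largest absolute log2 fold changes, and other names were chosen after their values were seen. 1 library with conflicting dose labels entered no comparison. The values of 1 gene of the exocytosis list are not reported here.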

Additional observations from a re-analysis of the deposited data

Results flagged for a closer look

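In a check of each gene within each group, on CPM scaled over the 44 grouped libraries, 5 of 48 gene and group combinations had a library far from the rest. Chance alone would give such a gap in about 1 of 20 groups. For Zg16 at 30 mg/kg, replicate 9 was the lowest at 2991 CPM, with the others at 4849 to 6444 CPM, and this library is rich in acinar enzymes. Spink4 in anti-p40 replicate 5 was the highest at 678 CPM, with the others at 245.2 to 338 CPM, and this library is rich in acinar enzymes too. In WT, Spink4 was highest in replicate 2 at 239.7 CPM, with the others at 153 to 192 CPM. Day 77 vehicle replicate 3 was the highest of its group for both Agr2, at 919 CPM (others 531 to 634 CPM), and Sytl2, at 120.2 CPM (others 62.0 to 76.0 CPM). The part of acinar RNA in these values was not tested.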

How the results depend on the processing

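In KO vehicle against WT, scaling to epithelial genes left 2 of the 8 genes higher and 2 lower, and the 3 settings on TPM 2 higher and 1 lower, with Fcgbp at 0.07 on log2(TPM + 1). On the epithelial scale Zg16 (-0.14), Sytl2 (-0.17) and Spdef (-0.10) were below 0, as was Atoh1 (-0.49), which was at 0.00 on TMM scaling. That scaling lowers all genes by a similar amount, with their median at -0.51. Leaving out 1 library each, 5 to 6 of the 8 were higher and 0 to 1 lower, with 7199 to 9102 of all genes called.

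With 30 mg/kg DESeq2 called 3 genes of all tested. At 10 mg/kg 2 genes were called, 72 by DESeq2, 1 on the epithelial scale, 20, 22 and 19 on TPM (pseudocounts 1 and 0.1, and no filter), 129 in a fit of all 6 groups, 0 without acinar-rich libraries and 1 to 18 leaving out 1 library. Between doses DESeq2 called 343, TPM settings 1, the 6-group fit 392, and leaving out 1 library 0 to 75.

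With anti-p40 2745 genes were called, 950 on the epithelial scale, 1782 (pseudocount 0.1) and 1365 (no filter) on TPM, 1644 in the 6-group fit, and 1637 to 2522 leaving out 1 library, the fewest without anti-p40 replicate 2. Of the 8 genes DESeq2 called 1 higher, TPM settings 2, 2 and 1, leaving out 1 library 0 to 1 higher and 0 to 1 lower, and leaving out acinar-rich libraries 1 lower. With acinar-rich libraries left out, 2494 of all 16667 genes were called, 1207 of them lower. The difference between anti-p40 and 30 mg/kg had 297 genes, 640 by DESeq2, 140 on the epithelial scale, 136 without acinar-rich libraries and 167 to 577 leaving out 1 library (167 without vehicle replicate 3, 577 without KO vehicle replicate 2), and 1 of the 8 higher on log2(TPM + 1).

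The acinar and count-per-TPM alternatives were chosen after seeing the data. No paired analysis was possible because the labels give each library its own identifier and no number shared between groups. Libraries held 22682471 to 36279743 counts, 23572537 to 35439593 at 10 mg/kg and 23215048 to 27824876 with KO vehicle, and the part of depth was not tested.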

Other observations

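For a further KO library the title gives 30 mg/kg but the treatment label 10 mg/kg, and it was placed in no group. It had 12169 TPM of Zg16, 6362 TPM of Tff3, 3037 TPM of Fcgbp, 4392 TPM of Spink4 and 1468 TPM of Agr2. Sytl2 was at 47.0 TPM, and Atoh1 and Spdef were both at 32.6 TPM.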
